A study of Homo sapiens with 8 samples.

Results

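Transcripts of the enzymes that make and break down retinoic acid, and of the receptors that read it, were followed in buds shaken off differentiating spheroids and in the bulks left behind. The group holds 9 listed genes, found by symbol among the 58233 genes of the deposited table, and all 9 had a row. They are the dehydrogenases ALDH1A1, ALDH1A2 and ALDH1A3, the P450 enzymes CYP26A1 and CYP26B1, the reductase DHRS3, and the receptors RARA, RARB and RARG. Of these, 7 passed the filter on low counts, while ALDH1A3 and CYP26A1 did not.

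All samples came from HUES8, a long-used line of human embryonic stem cells, taken in suspension flasks to stage 5 of a differentiation protocol meant to give pancreatic islet cells. Bulks were collected from flasks 252, 261, 264, 270 and 274 (n = 5) and buds from flasks 264, 270 and 274 (n = 3), with no other treatment or genotype named, so every sample is of a single line. Polyadenylated RNA was sequenced, and library totals ran from 6083973 to 12508039 expected counts. Levels are given as CPM, expected counts scaled to the TMM-adjusted size of each library.

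Retinoic acid is made from vitamin A. Retinol is oxidised reversibly to retinaldehyde, the ALDH1A enzymes oxidise retinaldehyde irreversibly to retinoic acid, and the CYP26 enzymes hydroxylate retinoic acid for removal. Retinoic acid binds RAR proteins, which sit with RXR partners on repeated DNA elements and switch target genes, RARB and CYP26A1 among them. In vertebrate embryos the signal is needed for early pancreas formation, and protocols that make islet cells from stem cells commonly add retinoids to the medium. What the media of these flasks held is not stated in the labels.

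A response element of that kind stands close to an annotated start of 2 of the 9 genes. Both are shown, as the only 2 found among the 9 genes. The transcript of RARB was lower in buds and that of CYP26A1 higher. Each of these genes has other annotated starts, and counts are per gene, so the start in use cannot be told. Whether the elements have a part in either change was not tested. The RefSeq promoter table (GRCh38.p14, 250 bases before to 50 after a start) held windows for all 9 genes, 18 in all. They were searched on both strands for direct repeats in which each unit was AGGTCA or its variant AGTTCA, or else GGGTCA or its variant GGTTCA, with 5, 2 or 1 bases between the units. A repeat with 5 bases between its units was found in 1 window of RARB and 1 of CYP26A1, and in 31 of all 35116 windows (0.0883%). No window of the other 7 genes held any of the 3 spacings, which says only that these letters are not in those windows. Below are the 120 bases before the start in both windows, 5′ to 3′ in the direction of the gene, with the repeat units in capitals.
RARB, plus strand, chr3:25428143-25428262: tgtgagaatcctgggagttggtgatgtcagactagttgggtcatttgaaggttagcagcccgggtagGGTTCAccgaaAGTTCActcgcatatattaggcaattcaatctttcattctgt
CYP26A1, plus strand, chr10:93073773-93073892: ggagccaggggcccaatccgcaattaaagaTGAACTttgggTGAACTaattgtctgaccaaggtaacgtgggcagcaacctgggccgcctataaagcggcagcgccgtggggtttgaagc
The RARB element begins 53 bases before that start and lies on the gene's own strand. The CYP26A1 element begins 90 bases before its start and lies on the opposite strand, so the units read TGAACT in the line above. Set on its own strand beside that of RARB, it differs at 2 of 17 positions, counted from the 5′ end of the element.
RARB element: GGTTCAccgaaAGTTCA
CYP26A1 element: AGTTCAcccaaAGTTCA
Going from RARB to CYP26A1 the substitutions are G1A, in the first unit, and G9C, between the units.

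Among the genes tested, RARB, DHRS3 and RARA were lower in buds, ALDH1A2 was higher, and ALDH1A1, CYP26B1 and RARG did not pass the threshold. Expression was compared with edgeR's quasi-likelihood test over 16641 genes, with Benjamini-Hochberg adjustment over all of them and a threshold of 0.05. Of all genes tested, 23.4% were higher and 23.8% lower in buds, 47.2% in either direction. The 1 higher and 3 lower of 7 tested members therefore stand close to the background, and the counts say nothing particular about the family. Without the bud of flask 270 the count of higher members was 3, and without that of flask 274 it was 2, as CYP26A1 passed the filter or ALDH1A1 the threshold. CYP26A1 passed through its buds alone, the group where it was high. The median log2 fold change of the 7 was -0.53, against -0.02 over all genes tested. In bulk RNA, fewer cells of a type and less RNA per cell cannot be told apart.

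**Figure D1:**
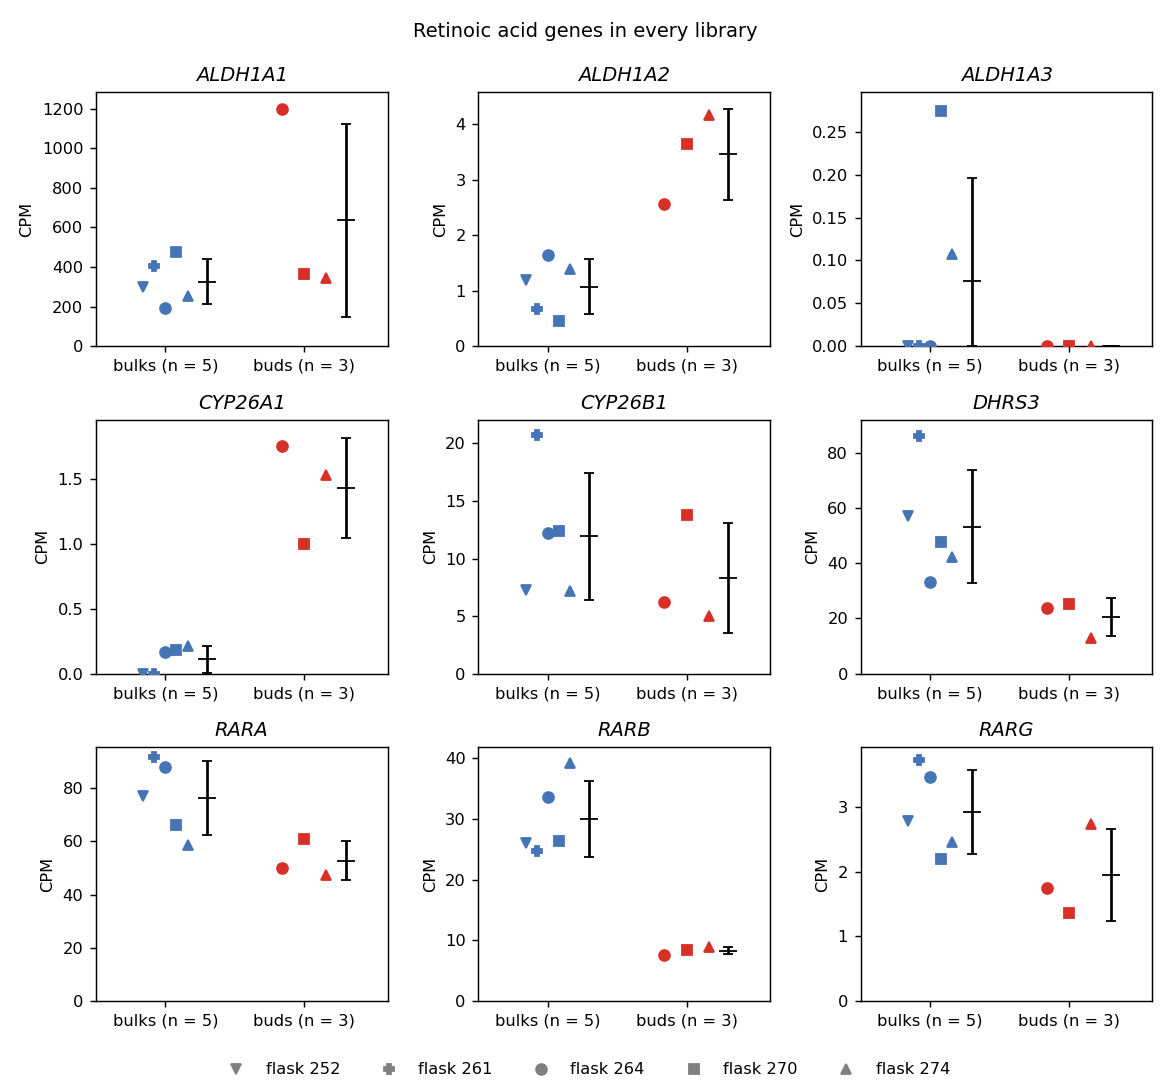
CPM (linear axes from 0, a different scale in each panel) of the 9 genes in bulks (blue, n = 5) and buds (red, n = 3), with marker shape giving the flask and black bars the mean ± SD, cut at 0. RARB and DHRS3 lie lower in every bud than in any bulk, ALDH1A2 and CYP26A1 lie higher, and 1 bud library stands far above the rest for ALDH1A1.

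RARB, the receptor gene that retinoic acid itself induces in many cells (chromosome 3, 24687887 to 25597932, GRCh38), had the smallest adjusted p of the 7 tested genes. In bulks it stood at 26.0, 24.7, 33.6, 26.4 and 39.3 CPM in flasks 252, 261, 264, 270 and 274. In buds it stood at 7.69, 8.37 and 8.99 CPM in flasks 264, 270 and 274. The bud values sit close together and far below the lowest bulk, and 23.7% of all genes tested likewise had every bud below every bulk (47.2% did not overlap in either direction). RARB fell from 30.0 ± 6.25 CPM (SD, n = 5) to 8.35 ± 0.653 CPM (SD, n = 3), a log2 fold change of -1.84 ± 0.20 (SE; edgeR adjusted p = 5.4e-05), or 3.58-fold lower. Within flasks the bud lay below its bulk by log2 differences of -2.13, -1.66 and -2.13 in flasks 264, 270 and 274.

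RARA encodes the receptor found in most tissues (chromosome 17, 40309180 to 40357643) and was the most abundant of the 3 receptor transcripts per length. Bulks held 77.1, 91.7, 87.8, 66.1 and 58.8 CPM in the same flask order, and buds 50.2, 61.0 and 47.3 CPM. The bud of flask 270 lay above the bulk of flask 274, so the groups overlap, although each bud lay below the bulk of its own flask. The log2 fold change was -0.53 ± 0.17 (SE; edgeR adjusted p = 0.0252). With flask as a block the adjusted p was 0.0997, and 3 libraries each ended the call when left out: the flask 261 bulk (0.0530), the flask 264 bud (0.0770) and the flask 274 bud (0.102). RARA shares 556 exon bases with the antisense gene RARA-AS1, which held 21.2 to 49.5 counts per library against 372 to 722 for RARA, and whether counting used strand is not stated in the labels.

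RARG, a receptor gene best known from skin and cartilage (chromosome 12, 53210567 to 53232980), was barely detected. It had 2.78, 3.72, 3.46, 2.20 and 2.46 CPM in bulks and 1.75, 1.36 and 2.73 CPM in buds, from 13 to 34 counts per library. Its groups overlap, and at -0.56 ± 0.33 (SE; edgeR adjusted p = 0.187) it did not pass. That fold change is close in size to that of RARA, and the difference between the genes was not tested.

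Per length, RARA made up most receptor transcripts in both groups and more of them in buds. Counts were divided by the kilobases of merged exons of each gene (GENCODE release 44). RARA stood at 16.1 ± 2.94 CPM per kb in bulks and 11.1 ± 1.53 in buds, RARB at 3.18 ± 0.661 and 0.884 ± 0.0691, and RARG at 0.570 ± 0.127 and 0.380 ± 0.137 (SD, n = 5 and 3). RARB was 11.5 to 24.4% of the 3 receptors in bulks and 6.32 to 8.31% in buds. With the length of the Ensembl canonical transcript, chosen after seeing the data, the RARB share was 21.2 to 40.0% and 12.3 to 15.7%. The share depends on the length taken, while its ranges in the groups stayed apart with either length. The members were chosen together, so no test is given for the share.

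**Figure D2:**
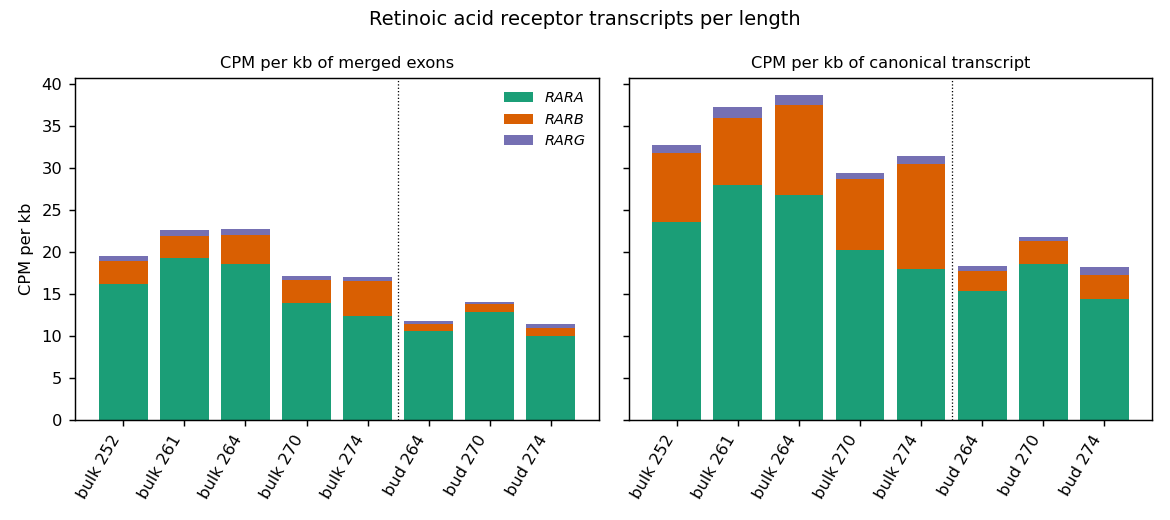
Stacked levels of RARA, RARB and RARG in each library, in CPM per kb of merged exons (left) and of the canonical transcript (right), with bulks left and buds right of the dotted line. The RARB segment is smaller in all 3 buds than in any of the 5 bulks, and RARA is the largest segment throughout.

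Of the 3 dehydrogenases that make retinoic acid, ALDH1A1 carried nearly all transcripts. Its share of the ALDH1A transcripts per length was 99.7 to 99.9% in bulks and 99.6 to 99.9% in buds. ALDH1A1 (chromosome 9, 72900671 to 73080442) stood at 300.3, 404.5, 192.5, 476.1 and 253.2 CPM in bulks of flasks 252, 261, 264, 270 and 274. In buds it stood at 1201.4, 362 and 344.5 CPM in flasks 264, 270 and 274. The bud of flask 264 is far above every other library, whereas the bulk of the same flask is the lowest of all. The other buds lie inside the range of the bulks.

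The log2 fold change of ALDH1A1 was 0.97 ± 0.41 (SE; edgeR adjusted p = 0.0761) and did not pass. That value rests on 1 library. Without the bud of flask 264 it was 0.12 (edgeR adjusted p = 0.777). Without the bud of 270 or of 274, which leaves that library more weight, it was 1.29 (0.0402) and 1.27 (0.0378). The within-flask log2 differences were 2.64, -0.40 and 0.44, so flask 270 went the other way.

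ALDH1A2, which in mouse embryos makes retinoic acid mainly in mesoderm and mesenchyme, was scarce and higher in buds (chromosome 15, 57953424 to 58497866). Bulks held 1.19, 0.664, 1.65, 0.458 and 1.39 CPM and buds 2.56, 3.64 and 4.17 CPM. These rest on 5 to 13 counts in a bulk and 19 to 51.6 in a bud. The groups did not overlap, and 23.5% of all genes tested likewise had every bud above every bulk. The rise of ALDH1A2 was 1.73 ± 0.39 on the log2 scale (SE; edgeR adjusted p = 0.00442), and it was higher in the bud of all 3 flasks, by 0.64, 2.99 and 1.59. The bulks alone would not have taken ALDH1A2 past the expression filter, so its entry to that test rested on the buds, where it was high. In a fit with no filter the log2 fold change was 1.76 ± 0.42 (SE; edgeR adjusted p = 0.00176). Of 10 mesenchyme genes, whose summed level was 33.7 to 116.5 CPM in bulks and 45.8 to 145.9 CPM in buds, 7 were tested, 1 rose and 1 fell, and each of the 10 had more than 3 counts in at least 1 library. Their part in the rise of ALDH1A2 was not tested. AQP9 shares 354 exon bases with ALDH1A2 on the opposite strand and held at most 2.38 counts.

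ALDH1A3, the form known from the developing eye and nose (chromosome 15, 100877714 to 100916626), was at the limit of detection. It held 3 counts in the bulk of flask 270, 1 in that of 274 and 0 in the other 6 libraries. All 8 libraries were at or below the floor of 3 counts, 0.241 to 0.494 CPM depending on the library. No fold is given for that reason.

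The enzymes that remove retinoic acid did not move together. CYP26A1, the form most sharply induced by retinoic acid (chromosome 10, 93073475 to 93077885), held 0, 0, 1, 2 and 2 counts in bulks of flasks 252, 261, 264, 270 and 274. It held 13, 11 and 19 counts in buds of flasks 264, 270 and 274. Every bud lay above every bulk, with at most 0.213 CPM in a bulk and up to 1.75 CPM in a bud. Of all genes tested, 23.5% likewise had every bud above every bulk. That share covers only genes past the expression filter, which CYP26A1 did not pass, and none was taken over genes with so few counts. Pooled over libraries the level in buds was 11.5-fold that in bulks (43 against 5 counts; 95% exact interval 4.58 to 37.4, counting error only).

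CYP26A1 was below the expression filter of the comparison. An exact permutation test of its CPM gave a two-sided p of 0.0179, the smallest that the 56 assignments of 8 libraries allow. With all 3 buds above all 5 bulks, that value only restates the lack of overlap. Adjusted over just the 2 members below the filter, and not over all genes, it was 0.0358 (0.464 for ALDH1A3). In a fit with no filter its log2 fold change was 3.44 ± 0.68 (SE; edgeR adjusted p = 0.000249). Within flasks the bud exceeded its bulk by log2 differences of 3.41, 2.45 and 2.84 in flasks 264, 270 and 274. The fit of these 3 flasks with flask as a block gave 2.78 ± 0.51 (SE). CYP26A1 passed the filter of that fit through its buds alone, the group where it was high, so its p-value is left out. Even in buds it stayed the scarcer CYP26 form, at 0.338 to 0.591 CPM per kb of merged exons, against 1.03 to 2.86 for CYP26B1. A long non-coding RNA gene shares 750 exon bases with CYP26A1 on the same strand and had no row in the deposited table. Whether reads from it were counted as CYP26A1 cannot be told.

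CYP26B1, a second hydroxylase of retinoic acid (chromosome 2, 72129238 to 72147862), varied as much within groups as between them. Bulks stood at 7.27, 20.7, 12.2, 12.4 and 7.15 CPM and buds at 6.20, 13.8 and 4.98 CPM. The bulk of flask 261 was the highest library, and the bud of 270 lay above 4 of the 5 bulks. At -0.51 ± 0.42 (SE; edgeR adjusted p = 0.341) it did not pass, and the bud was higher in 1 of 3 flasks. Its size depends on single libraries: the log2 fold change was -0.22 without the flask 261 bulk (edgeR adjusted p = 0.667), -0.23 without the flask 274 bud (0.718) and -1.06 without the flask 270 bud (0.0784).

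DHRS3 reduces retinaldehyde back to retinol and so limits the substrate for retinoic acid synthesis (chromosome 1, 12567910 to 12618210). Bulks stood at 57.1, 86.2, 33.3, 47.8 and 42.1 CPM, whereas buds reached 23.7, 25.4 and 12.8 CPM. Every bud lay below every bulk, as in 23.7% of all genes tested. DHRS3 fell from 53.3 ± 20.3 to 20.6 ± 6.81 CPM (SD, n = 5 and 3), a log2 fold change of -1.37 ± 0.32 (SE; edgeR adjusted p = 0.00521). The fall within a flask was smallest in flask 264 (-0.49) and larger in 270 (-0.91) and 274 (-1.71).

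Ordered by level per kb of merged exons in bulks, ALDH1A1 came first, and RARA and DHRS3 followed with ranges that overlap. RARB and CYP26B1 came next and also overlap, then RARG, and last ALDH1A2, CYP26A1 and ALDH1A3, of which each overlaps the next. In buds ALDH1A1 and RARA kept their places, and DHRS3, at 3.65 to 7.22 CPM per kb, lay below RARA at 9.97 to 12.9. CYP26B1 at 1.03 to 2.86 stood above RARB at 0.814 to 0.952 in buds, and CYP26A1, ALDH1A2 and RARG followed with ranges that overlap. The order depends on the length taken. Per kb of canonical transcript, RARB was at 2.45 to 2.87 and CYP26B1 at 1.09 to 3.03 in buds, and the ranges overlap. In bulks, by that length, RARB at 7.89 to 12.5 lay above CYP26B1 at 1.57 to 4.55. Likewise ALDH1A2 at 0.135 to 0.487 lay above CYP26A1 at 0 to 0.101 in bulks.

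Genes of other cell types and states moved between the same groups of libraries. Among all genes tested, 23.4% rose and 23.8% fell. The summed level of 8 pancreatic progenitor genes was 489.4 to 665.1 CPM in bulks and 253.1 to 344.5 CPM in buds, with 7 of 8 lower. That of 8 cell cycle genes was 545.3 to 719.1 and 120.4 to 144.5 CPM, with all 8 lower. Of 10 endocrine genes 6 rose, and the sum of the 10 was 2321.7 to 9396.6 CPM in bulks and 12613.1 to 23874.8 CPM in buds. Most of the sum in buds was CHGA and SST, at means of 7889.8 and 5732.6 CPM. The hormone genes INS and GCG did not pass (edgeR adjusted p = 0.292 and 0.480), nor did NEUROD1 (0.853) and INSM1 (0.406). All 10 neuron genes rose, with a sum of 675.6 to 1194.8 CPM in bulks and 3076.9 to 4650.4 CPM in buds. Each gene of these 4 lists had more than 3 counts in at least 1 library. Of 10 intestine and stomach genes 6 were tested and 5 fell, with a sum of 449.7 to 977.5 CPM over the bulks and 145.6 to 277.6 CPM over the buds. Of 8 pluripotency genes 3 were tested and all 3 fell, with sums of 155.6 to 242.1 CPM and 18.8 to 44.5 CPM. SOX2, 1 of the 3, is also in the intestine and stomach list and counts as a fall in both. Of 6 neural crest and glia genes 2 were tested and 1, ERBB3, fell, with sums of 178.9 to 274.7 CPM and 23.1 to 86.6 CPM. Most of that sum was ERBB3, at a mean of 222.2 CPM in bulks and 45.1 CPM in buds. S100B, below the filter, went the other way, from a mean of 0.232 CPM in bulks to 1.19 CPM in buds. Of 10 liver genes 1 rose and 5 fell, while their sums overlapped, at 497.6 to 1034 CPM and 561.3 to 1310.2 CPM. Of 8 endothelium and blood genes 1, KDR, was tested and rose, with sums of at most 3.42 CPM in a bulk and 10.9 CPM in a bud. Most of that sum was KDR, at a mean of 2.0 CPM in bulks and 7.36 CPM in buds. Defining genes with at most 3 counts in any library were SOX10 and FOXD3 of neural crest and POU5F1 of pluripotent cells. PECAM1, PTPRC, HBG1 and CD34 of the endothelium and blood list also had at most 3 counts in any library. Other genes of the neural crest and pluripotency lists were expressed in bulks, such as ERBB3, LIN28A and L1TD1. The part of these lists in the falls of RARB, DHRS3 and RARA and the rise of ALDH1A2 was not tested.

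Other genes of retinoid handling moved in both directions, as genes at large did. In 5 further lists 81 genes were named, 5 of them in 2 lists. Of the 81 genes, 60 were tested, 14 rose and 14 fell, with a median log2 fold change of 0.00 (-0.02 over all genes tested). Among all genes tested 23.4% were higher and 23.8% lower, so these counts say nothing particular about retinoid genes. The same shares are the background for each list below. Of 15 genes of uptake, binding and storage, 11 were tested, 4 rose and 1 fell, with a median of 0.41.

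Of these, CRABP1, which binds retinoic acid in the cytosol, ran from 4.61 to 15.5 CPM over the bulks and from 54.7 to 76.3 CPM over the buds. It rose by 3.11 ± 0.34 (SE; edgeR adjusted p = 5.5e-05). CRABP2, which carries retinoic acid to the nucleus, had -0.80 ± 0.37 (edgeR adjusted p = 0.102). RBP4, the carrier of retinol in blood, rose by 3.69 ± 0.35, and FABP5, a fatty acid binder that also takes retinoic acid, by 1.6 ± 0.22. LRAT, which esterifies retinol for storage, ran the other way, with 46.8 to 161 CPM over the bulks against 5.78 to 16.7 CPM over the buds. It fell by 3.10 on the log2 scale (SE 0.45; edgeR adjusted p = 0.000308). STRA6, the cell-surface receptor that takes up retinol from RBP4, rose by 0.99 ± 0.22 (edgeR adjusted p = 0.00366).

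Of 20 retinol and retinaldehyde oxidoreductases, 12 were tested, 2 rose and 1 fell, with a median of 0.14. RDH10, the retinol dehydrogenase that embryos depend on, had 0.14 ± 0.19 (edgeR adjusted p = 0.573) with 7.95 ± 1.25 CPM in bulks against 8.75 ± 0.553 CPM in buds. ADH5 fell by 0.79 on the log2 scale (SE 0.12; edgeR adjusted p = 0.000375). RDH11 had 0.40 ± 0.14 (edgeR adjusted p = 0.0305), a call that ended without the flask 252 bulk (0.0636), the flask 274 bulk (0.0591) or the flask 264 bud (0.118). Of 6 other dehydrogenases and P450 enzymes 4 were tested, 1 rose and 3 fell, with a median of -1.53. ALDH1B1, a mitochondrial relative of the ALDH1A enzymes, had -1.18 ± 0.21 (edgeR adjusted p = 0.000924), CYP2S1 -2.99 ± 0.35 and CYP27C1 -1.87 ± 0.26, while ALDH2 had 0.76 ± 0.10.

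Of 18 RXR partners and co-regulators of the receptors, 17 were tested, 2 rose and 4 fell, with a median of -0.19. RXRA, the main partner of the RAR proteins in many tissues, fell by 0.74 on the log2 scale (SE 0.18; edgeR adjusted p = 0.00717), from 113.9 CPM in bulks to 68.2 CPM in buds. RXRB had 0.00 ± 0.14 (edgeR adjusted p = 0.991). Co-activator genes went both ways: NCOA1 and NCOA2 rose by 0.53 ± 0.11 and 0.55 ± 0.13, while CREBBP and EP300 were called lower at -0.52 (edgeR adjusted p = 0.00466) and -0.35 (0.0267). TBL1X, of the co-repressor complex, fell by 1.07 on the log2 scale (SE 0.28).

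Textbook targets of retinoic acid did not share a direction. Of 27 genes 20 were tested, 6 rose and 5 fell, with a median of 0.03. The shares over all genes tested were 23.4% higher and 23.8% lower, so these counts too stand near the background. The HOXB genes made up the largest rises, with HOXB5 going from 2.63 ± 0.909 CPM in bulks to 128 ± 68.9 CPM in buds, a log2 fold change of 5.56 ± 0.39 (SE; edgeR adjusted p = 1.2e-05). HOXB4, HOXB2 and HOXB3 rose by 3.50 ± 0.42, 2.61 ± 0.25 and 2.30 ± 0.22. In the HOXA cluster HOXA3 had -1.10 ± 0.25 (edgeR adjusted p = 0.00478) and was called lower, as was HOXA2 at -0.81 (0.0304), whereas HOXA5 at 1.11 (0.0657) and HOXA4 at 0.92 (0.0505) did not pass. MEIS1, a homeobox factor that partners HOX proteins, was called lower at -0.90 ± 0.15. Of 29 genes whose RefSeq windows held the repeat with 5 bases between its units, 19 matched the table by symbol and 9 were tested. Of these 9, 4 fell, RARB among them, and 0 rose, with a median of -0.11. Among all genes tested 23.8% were lower and 23.4% higher. CYP26A1 also holds the repeat and was higher in buds, but it was below the filter and is not among the 9. So few genes give no direction for genes with the repeat.

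**Figure D3:**
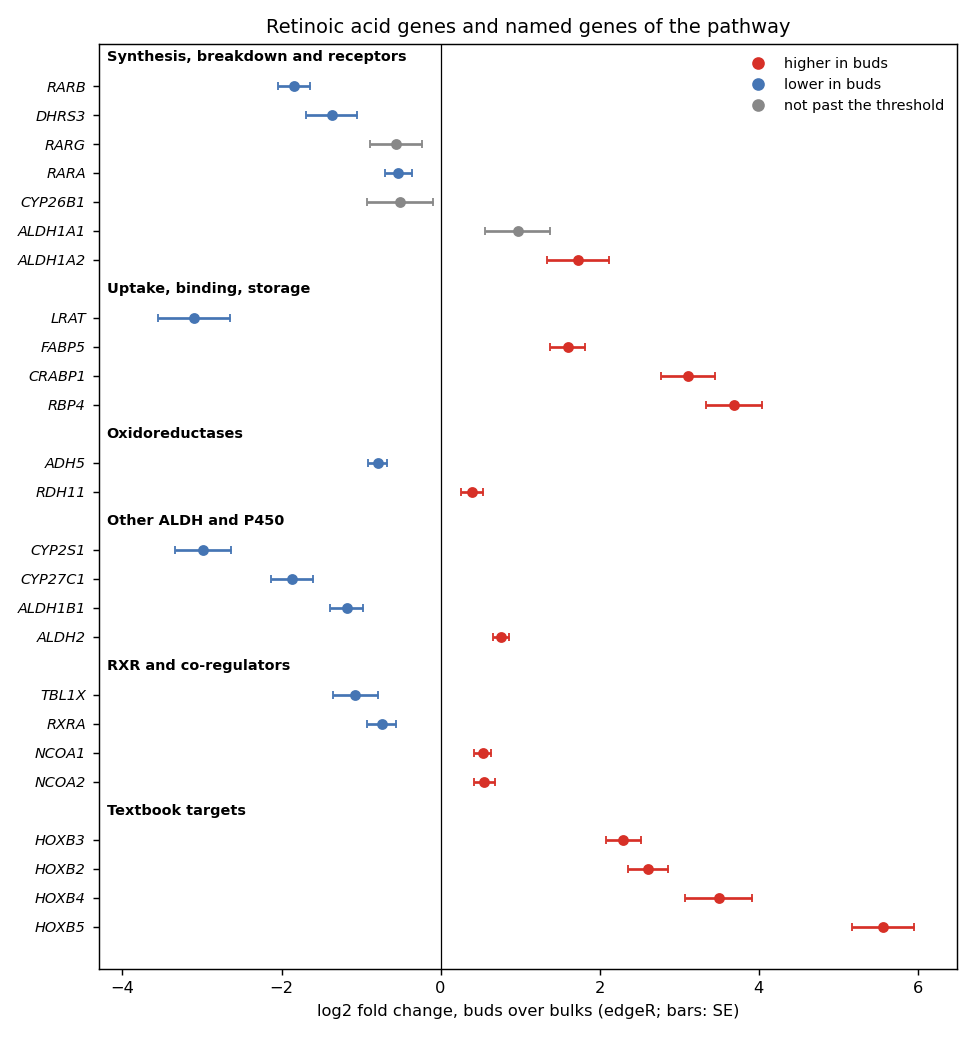
Log2 fold change of buds over bulks (points; bars, SE from edgeR) for the 7 tested retinoic acid genes and the named genes of 5 pathway lists. Red and blue points passed the threshold, grey points did not. RARB at -1.84 and LRAT at -3.10 lie left of 0, whereas ALDH1A2, CRABP1, RBP4 and the HOXB genes lie right of it.

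The genes with the most similar profile were sought by the root mean square distance of log2(CPM + 1), centred on each gene's mean, over the 8 libraries, among 12403 genes with a mean of at least 5 CPM. Closest to RARB were GXYLT2 (0.118), BDNF (0.162) and MCM4 (0.176), where the profile of RARB itself had a spread of 0.85. Closest to DHRS3 were EFHD2 (0.203), ARHGEF39 (0.240) and PLEKHF1 (0.252). The RARA profile was matched most closely by ITGA3 (0.0634), CALM3 (0.0677) and DDAH2 (0.0766). For ALDH1A1, with its high bud of flask 264, the nearest were TMEM171 (0.271), PDZK1 (0.308) and DLL4 (0.309). ALDH1A2 had KCNMB4 (0.158), DUSP6 (0.159) and NUAK1 (0.165) nearest, among 12404 genes, as it falls below 5 CPM itself. Those of CYP26B1 lay no closer than 0.285 (C1orf159, TMEM186 and SCNM1), and RARG had METTL18 (0.129), XXYLT1 (0.134) and ATRIP (0.139). All 8 libraries share the split into buds and bulks, so a small distance is a description of likeness only.

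**Figure D4:**
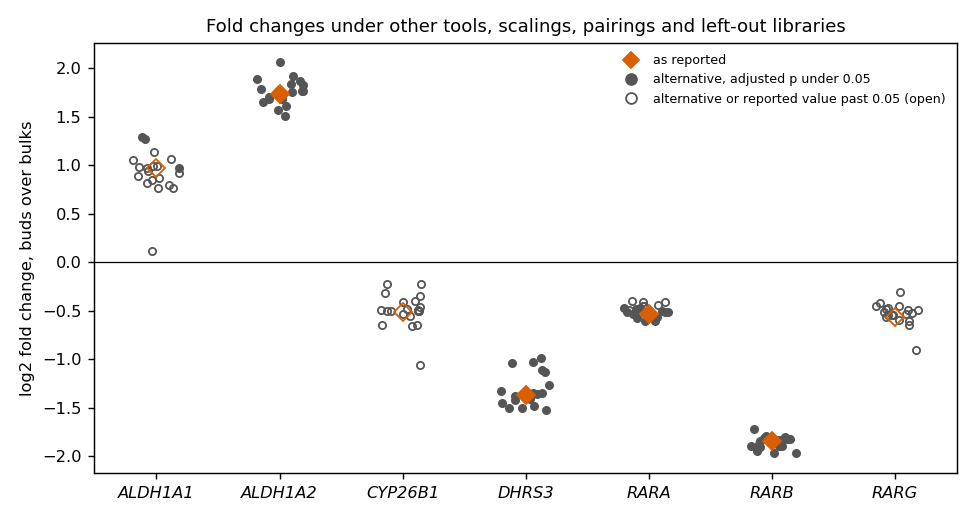
Log2 fold change of buds over bulks for the 7 tested genes as reported (diamonds) and under the alternatives in tool, scaling, filter, pairing and libraries used (circles). Filled marks have an adjusted p under 0.05. RARB stays between -1.97 and -1.72, and ALDH1A1 spans 0.12 to 1.29.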

How the data were processed

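The authors deposited expected counts per Ensembl gene, 1 column per library. Per the submitters' processing notes they used STAR, RSEM and GRCh38; the series design text adds that reads were paired and settings left at their defaults. Tool versions, annotation release and strand setting were not stated. Because RSEM shares reads between similar genes, 11.5% of deposited values were not whole.

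Of 58233 genes, 57392 (98.6%) matched GENCODE release 44 by identifier. Expected counts were rounded and tested with edgeR 4.0.16 in R 4.3.3 (TMM factors, its expression filter by group with minimum count 10 and minimum total 15, quasi-likelihood F test, no covariate). The test was tried on simulated data. Fold changes are buds over bulks. Flasks were separate differentiations of 1 line, so p-values measure the spread between their libraries. No 2 libraries of a group matched within sampling noise (lowest chi-square per gene 9.28).

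The labels give shared flask numbers, which pair buds with bulks. Deviations from group means correlated, across genes, at 0.123 to 0.295 in the 3 shared flasks and at -0.245 to 0.194 in the 12 other pairs.

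Members and lists were chosen with earlier results of these data known. The text names all 9 members and, per list, the 4 largest called changes among genes that reached 5 CPM in 1 group's mean and kept their direction in all 3 shared flasks. CRABP2, STRA6, RDH10, RXRB, CREBBP, EP300, HOXA2, HOXA3, HOXA4, HOXA5 and MEIS1 were named in addition, after their values were seen. Alternatives were DESeq2 1.42.0, limma 3.58.1 (voom, also with flask as a random effect), other scalings and filters, flask as a block, the 3 shared flasks alone, a stricter threshold and leaving out libraries.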

Additional observations from a re-analysis of the deposited data

Results flagged for a closer look

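Of 27 genes examined for a far sample among the 5 bulks, 2 had one: the gap to its nearest neighbour exceeded 0.71 of the range. About 1 in 20 groups would be marked by chance alone. CRABP1 stood at 15.5 CPM in the bulk of flask 252, a gap of 0.776 of the range. TBL1X stood at 176.7 CPM in the bulk of flask 264, a gap of 0.740 of the range. None of the 9 retinoic acid genes had a far sample among the bulks by this measure, and the buds, with 3 libraries, cannot be examined this way. The high ALDH1A1 of the bud of flask 264 is therefore given in the text by its value alone.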

How the results depend on the processing

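RARB, DHRS3 and ALDH1A2 kept their direction and call at 0.05 under every alternative in which they were tested. ALDH1A2 was removed by the filter at a mean of 5 CPM. Of 145 values of members under alternatives, 134 kept direction and side of the threshold, 8 (all RARA) lost the call, 3 (all ALDH1A1) gained it and 0 reversed. RARA lost it at a threshold of 0.01 and in the fits with flask as a block, with the 3 shared flasks (both fits), without the bulks of 252 and 264 and without the bulk of 261, the bud of 264 or the bud of 274. ALDH1A1 gained it with no filter (edgeR adjusted p = 0.0108) and without the bud of 270 or 274. Of members, 1 was called higher as reported, 3 with no filter, 0 among genes of at least 5 CPM, and 2 in the 3 shared flasks (with and without the replicate block) and without the bulks of 252 and 264, where CYP26A1 passed the filter. CYP26A1 did so through its buds alone, the group where it was high. Leaving out 1 library gave 1 to 3 called higher and 2 to 3 called lower. With flask as a block 1 was higher and 2 lower, and 6621 of all genes were called in place of 7861; the block changed no other member's call. CYP26A1, ALDH1A2, ALDH1A3 and RARG are limited by depth. The RARB share per length averaged 16.4% and 7.19% in bulks and buds with merged exons, 28.6% and 13.8% with canonical transcripts.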
